A study of Mus musculus with 16 samples.

Results

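Abcb11, Slc27a5 and Cyp27a1, which serve the making and export of bile acids, were compared between 2 organs, kidney and liver, of the inbred mouse strain C3HeB/FeJ. They were chosen by name, as the probes annotated with one of these symbols alone, which gave 1 cDNA probe per gene, and they are 3 of 9669 genes named on the array. All animals were wildtype males of 105 ± 5 days, bred free of specified pathogens, and gave the left kidney and the dorsal lobe of the liver. The 16 arrays in 2 colours each paired a single mouse's organ with pooled RNA of the other organ. On 7 kidney arrays (3 each for mice 1 and 2, and 1 for mouse 3) the partner was RNA pooled from 5 livers. On 9 liver arrays (3 for each of these mice) the partner was RNA pooled from 5 kidneys. Whether mice 1 to 3 were among the pooled animals is not given in the sources used here. Values are log2 ratios with kidney on top, so a negative value means less RNA in kidney.

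Bile acids are made from cholesterol in hepatocytes, along a classical route that opens with Cyp7a1 and an acidic route that opens with Cyp27a1, a cytochrome P450 of the inner mitochondrial membrane that oxidises the sterol side chain and is found in many tissues. Slc27a5, also called FATP5, is a fatty acid transport protein of the liver that joins bile acids to coenzyme A, which prepares them for coupling to taurine or glycine. Abcb11, the bile salt export pump, is the ATP-driven carrier that moves conjugated bile salts across the canalicular membrane into bile. The 3 genes thus stand for synthesis, activation and export. In kidney, tubule cells take bile acids back from the filtrate and return them to blood.

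Promoters are shown because the genes with the largest and the smallest organ ratio of the 3, Abcb11 and Cyp27a1, had an entry in the RefSeq table (build GRCm38.p6, 250 bases before to 50 after the start, in the direction of the gene). The first is chr2:69342567-69342866 on the minus strand, the second chr1:74713285-74713584 on the plus strand. Capitals mark matches on either strand to 8 motifs searched.
Abcb11: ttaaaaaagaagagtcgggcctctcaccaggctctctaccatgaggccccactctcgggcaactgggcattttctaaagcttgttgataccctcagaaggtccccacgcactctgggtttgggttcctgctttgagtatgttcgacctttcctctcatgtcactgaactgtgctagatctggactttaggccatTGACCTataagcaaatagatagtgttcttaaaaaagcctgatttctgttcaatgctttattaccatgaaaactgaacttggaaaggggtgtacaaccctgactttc
Cyp27a1: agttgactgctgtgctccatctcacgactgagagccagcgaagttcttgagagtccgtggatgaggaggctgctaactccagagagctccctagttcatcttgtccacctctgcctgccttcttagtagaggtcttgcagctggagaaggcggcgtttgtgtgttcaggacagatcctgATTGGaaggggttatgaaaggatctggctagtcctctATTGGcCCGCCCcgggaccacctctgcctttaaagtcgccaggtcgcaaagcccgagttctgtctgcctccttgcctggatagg

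The Abcb11 window held 1 match to AGGTCA, a motif bound by nuclear receptors, on the opposite strand at position -56 from the start, and 16.2% of 32544 promoters hold it. The Cyp27a1 window held CCAAT on the opposite strand at -71 and -34 (37.4% of promoters hold it) and the GC box CCGCCC at -28 (35.9%). The motifs GGTCANTGA (core of the inverted repeat bound by the bile acid receptor FXR; 0.842% of promoters), CAAAGTCCA (bound by HNF4; 0.479%), GTTAATNAT (bound by HNF1; 0.808%), TTGCNNAA (bound by C/EBP factors; 10.8%) and the TATA box TATAAA (13.6%) had no match in either window. Only exact matches were counted. In the Abcb11 window the letters ggccatTGA, which run into the marked match, differ from GGTCANTGA at 1 base. The GC content was 45.3% for Abcb11 and 55.3% for Cyp27a1. A match is a description of the letters and was not tested as a binding site.

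The titles of the arrays name the single mouse before the pool, but the direction of the ratio is not stated, and the rule for these genes reads the deposited values as pool over single mouse. The opposite reading would exchange kidney and liver in every sentence. Under this reading 8 of 8 hepatocyte markers, such as Alb (-7.89), were lower in kidney, and 5 of 5 measured proximal tubule markers, such as Kap (6.05), were higher in kidney. The same marker types were used to set the direction, so they are no independent evidence of it. Of 5 cholangiocyte markers measured, Cftr was higher in kidney (1.37), Sox9 was higher in liver (-1.03) and 3 did not pass the test. Of these 3, Krt7 passed as higher in kidney with arrays centred on their median (1.23, limma, Benjamini-Hochberg adjusted p = 0.000212). On arrays of mice 1 and 3, 66.7% of the Sox9 values recurred exactly, which is taken below to mark a dim probe. Sox9 did not pass with mouse as a replicate block (adjusted p = 0.18). Markers of distal tubule and loop of Henle (2 of 2), collecting duct (3 of 3) and podocytes (2 of 2) were higher in kidney. Kupffer cell markers were higher in kidney for 0 and in liver for 2 of 4, Clec4f (-1.91) and C1qa (-1.13), of which C1qa did not pass with that block (adjusted p = 0.125), and neither of 2 stellate cell markers tested passed. Between 15480 and 19432 of 20419 probes had a value on an array. The median log2 ratio of an array was between -0.00267 and -0.00057 on the 10 arrays of mice 1 and 3, and between -1.49 and -1.19 on the 6 arrays of mouse 2.

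Abcb11, the export step, was the gene with the largest organ difference of the 3. On kidney arrays it averaged -5.86, -5.89 and -5.60 in mice 1, 2 and 3, and on liver arrays -5.82, -5.78 and -5.16. The 7 kidney arrays ran from -6.32 over a median of -5.75 to -5.60, and the 9 liver arrays from -6.20 over a median of -5.79 to -4.31. Every array thus put kidney far below liver, and the arrays of both kinds overlapped. The estimate was -5.69 (SE 0.21, 95% interval -6.16 to -5.21, n = 3 mice per organ), or 51.5-fold lower in kidney, with an interval of 36.9-fold to 71.7-fold (limma, Benjamini-Hochberg adjusted p = 7.04e-07 over 9047 genes).

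Slc27a5, the activation step, came next. Its averages on kidney arrays were -4.45, -3.56 and -4.23 in mice 1, 2 and 3, and those on liver arrays -4.16, -3.54 and -4.75. Its kidney arrays ran from -4.62 over a median of -4.23 to -3.51, and its liver arrays from -5.02 over a median of -4.12 to -3.15. Mouse 2 had the smallest difference between organs on both kinds of arrays. The estimate was -4.12 (SE 0.25, 95% interval -4.68 to -3.55), or 17.3-fold lower in kidney, with an interval of 11.8-fold to 25.6-fold (limma, Benjamini-Hochberg adjusted p = 9.7e-06).

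Cyp27a1, the synthesis step, had the smallest organ difference of the 3 and the least spread. Averages were -3.39, -3.69 and -3.52 on kidney arrays of mice 1, 2 and 3 and -3.38, -3.34 and -3.77 on liver arrays. Kidney arrays ran from -3.84 over a median of -3.53 to -3.20, and liver arrays from -3.88 over a median of -3.48 to -3.25. Both kinds of arrays overlapped over nearly their whole ranges. The estimate was -3.51 (SE 0.20, 95% interval -3.97 to -3.05), or 11.4-fold lower in kidney, with an interval of 8.31-fold to 15.7-fold (limma, Benjamini-Hochberg adjusted p = 7.39e-06).

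**Figure D1:**
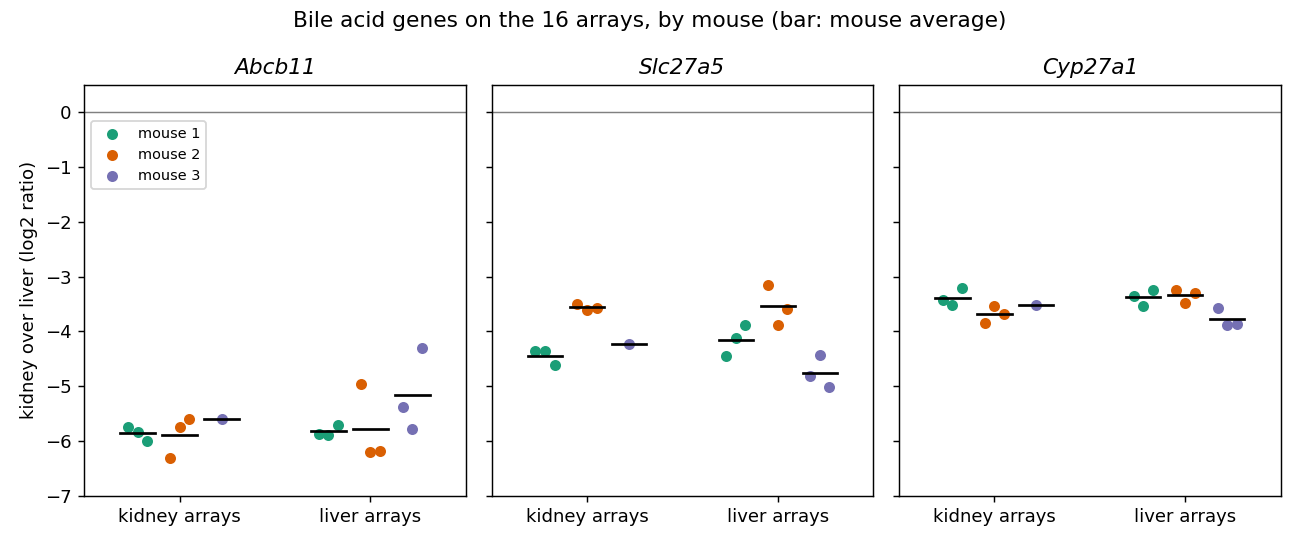
Log2 ratio of kidney over liver (vertical axis) for each of the 3 genes on 7 kidney arrays (left in each panel) and 9 liver arrays (right), with 1 point per array, coloured by mouse, and a black bar at the average of each mouse. All points lie below 0, Abcb11 is lowest, and the orange points of mouse 2 are highest for Slc27a5.

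All 3 genes passed the test as higher in liver, which 8.88% of the 9047 genes tested did, while 5.56% passed as higher in kidney. The median over all genes tested was -0.48, and centring every array on its median moved it by 0.43, to -0.05. Ordered by liver excess among all genes tested, Abcb11 stood at place 36, Slc27a5 at 64 and Cyp27a1 at 91. Kidney and liver averages of a mouse entered this fit as independent although they come from the same animal. With mouse as a replicate block, limma gave each of the 3 genes an SE of 0.454, which widened the fold intervals to 27.8 to 95.4 for Abcb11, 9.35 to 32.1 for Slc27a5 and 6.16 to 21.2 for Cyp27a1. With that block 4.78% of 8984 genes passed as higher in liver, and all 3 genes were among them (limma, Benjamini-Hochberg, highest adjusted p = 7.58e-13). This SE was the same for the 3 genes, so its intervals and p-values do not measure each gene's own spread over 3 mice. With mouse as a random replicate block the SE was 0.42 for Abcb11, 0.45 for Slc27a5 and 0.43 for Cyp27a1. All 3 passed there too (limma, Benjamini-Hochberg, highest adjusted p = 3.6e-06). Single-channel intensities were not used here, so the ratios give no level in either organ. Which organ carried which dye is not given in the sources used here, and a dye effect was not tested. In whole tissue, fewer cells of a type and less RNA per cell cannot be told apart.

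Because the 3 probes lie on the same arrays, an offset shared by all probes of an array cancels in the difference between their log2 ratios. An offset that varies between probes, as that of mouse 2 did with signal (below), does not cancel in full. Abcb11 lay below Cyp27a1 by a mean difference of -2.17 ± 0.39 (SD, n = 3 mice) and did so on 16 of 16 arrays. Abcb11 lay below Slc27a5 with a mean difference of -1.57 ± 0.70 (SD, n = 3), on 15 of 16 arrays. The exception was a liver array of mouse 3, where Abcb11 was at -4.31 and Slc27a5 at -5.02. The median of the hepatocyte markers on that array, -6.86, lay between those of the other liver arrays of mouse 3, -7.01 and -6.72. Slc27a5 lay below Cyp27a1 with a mean difference of -0.60 ± 0.49 (SD, n = 3), on 13 of 16 arrays, and by mouse the differences were -0.92, -0.04 and -0.85. These neighbours therefore differed by little more than their spread, and in mouse 2 hardly at all. All 3 pairs had the same sign in 3 of 3 mice, and the exact two-sided sign-flip test over mice gave p = 0.25 for each pair (0.25 after adjustment over 3 pairs), the smallest value that 3 mice allow.

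The kind of array asks whether the ratio depends on which organ came from a single mouse and which from the pool. Kidney arrays minus liver arrays gave -0.19 for Abcb11 (95% interval -1.15 to 0.76), 0.07 for Slc27a5 (-1.05 to 1.19) and -0.03 for Cyp27a1 (-0.95 to 0.88). For none of the 3 did this pass (limma, Benjamini-Hochberg adjusted p = 1). Over all genes, 0% of 9047 passed, 16 had an unadjusted p under 0.05, and 9 passed with mouse as a replicate block. With that block the intervals narrowed to -0.58 to 0.19 for Abcb11, -0.38 to 0.52 for Slc27a5 and -0.44 to 0.38 for Cyp27a1. Without the block, differences between mice, the offset of mouse 2 among them, stay in the residual of this term and widen its intervals. A difference between array kinds within the bounds of the block fit was not detectable with 3 mice.

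The animals were set against each other within an organ, with the moderated F test of limma on single arrays, each centred on its median. Repeat arrays held the same RNA, so this sets 3 RNA samples against the technical spread and not against other animals. The SD between repeat arrays of a mouse and organ was 0.0970 to 0.764 for Abcb11, 0.0530 to 0.369 for Slc27a5 and 0.123 to 0.175 for Cyp27a1. Slc27a5 stood higher in mouse 2 than in mouse 1 by 2.19 on kidney arrays and 1.90 on liver arrays (limma, Benjamini-Hochberg adjusted p = 0.000225 and 8.28e-05). Abcb11 stood higher in mouse 2 by 1.28 on kidney arrays (adjusted p = 0.00235) and by 1.33 on liver arrays (adjusted p = 0.0604), and Cyp27a1 by 1.01 and 1.32 (adjusted p = 0.00361 and 6.41e-05). Centring shifts every gene of an array by the same amount. As deposited, mouse 2 minus mouse 1 was -0.02 on kidney and 0.04 on liver arrays for Abcb11, and -0.30 and 0.04 for Cyp27a1. Calls between mice on centred arrays were common, with 47.3% of 7569 genes passing on kidney arrays and 39.3% of 8987 on liver arrays.

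The offset of mouse 2 varied with signal, judged by the share of a probe's values that recur exactly on their array. This share was taken to be high for dim probes and low for bright ones, and it was 0 for the 3 genes. Channel intensities were not used, so a share of 0 does not show that the signal of both organs lay above background. Relative to mice 1 and 3, mouse 2 lay at a median of -0.30 over 2967 bright probes, against -1.47 over 7126 dim ones. Over 185 bright probes with a liver excess of at least 3 in mice 1 and 3 it lay at -0.09. These probes were picked by the same average that is subtracted, so this median can lean upward. Abcb11 lay at -0.22, Cyp27a1 at -0.003 and Slc27a5 at 0.88. The part of this offset in the differences between mice was not tested, and a mouse cannot be told apart from the set of arrays it was hybridised on.

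For Abcb11 and Cyp27a1 these differences depended on the scaling. As deposited, Slc27a5 in mouse 2 was above mouse 1 by 0.89 and above mouse 3 by 0.67 on kidney arrays, and by 0.61 and 1.21 on liver arrays (limma, Benjamini-Hochberg adjusted p = 0.00283 and 0.00253). Abcb11 did not pass as deposited (adjusted p = 0.663 on kidney arrays and 0.237 on liver arrays), and Cyp27a1 passed on liver arrays but not on kidney arrays (adjusted p = 0.33 on kidney arrays and 0.0412 on liver arrays). Of all genes, 74.9% passed as deposited on kidney arrays and 86.6% on liver arrays. With arrays aligned at the median of bright probes, a setting chosen after seeing the data, Slc27a5 in mouse 2 was above mouse 1 by 1.10 and 1.04 (adjusted p = 0.000823 and 0.000805). There Abcb11 did not pass (adjusted p = 0.479 and 0.193), Cyp27a1 passed on liver arrays (adjusted p = 0.899 on kidney arrays and 0.00878 on liver arrays), and 71.2% and 73.6% of all genes passed. With shares of this size, a pass says little of a gene in particular, and Slc27a5 is given here by its values.

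**Figure D2:**
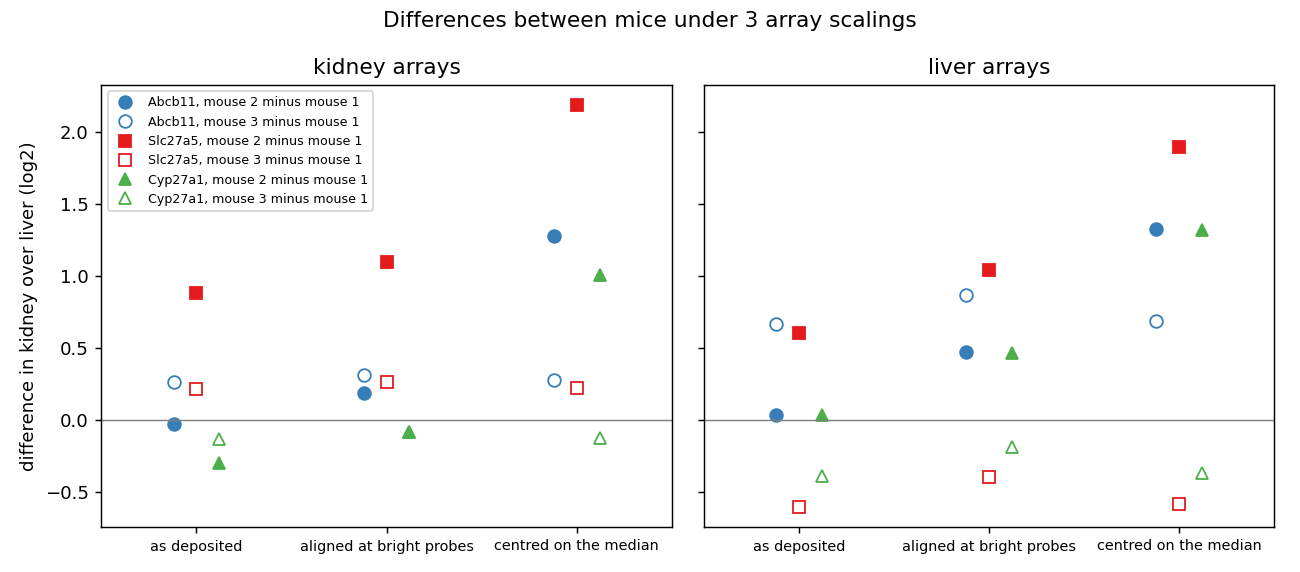
Difference in the log2 ratio of kidney over liver (vertical axis) of mouse 2 (filled) and mouse 3 (open) from mouse 1, on kidney arrays (left) and liver arrays (right), under 3 scalings of the arrays. The filled red squares of Slc27a5 in mouse 2 lie above 0 in every case, from 0.61 to 2.19, while Abcb11 and Cyp27a1 of mouse 2 lie at 0.04 as deposited on liver arrays and above 1 only after centring.

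The wider pathway was read from the same fit. Of 56 genes listed for synthesis, transport and control, 29 had a probe of their own and were tested, and 3 were higher in kidney, 14 were higher in liver and 12 did not pass (limma, Benjamini-Hochberg), where 5.56% of all genes tested were higher in kidney and 8.88% higher in liver. Their median was -0.78, against -0.48 over all genes tested. Without Abcb11, Slc27a5 and Cyp27a1, 3 of 26 were higher in kidney and 11 higher in liver, with a median of -0.59. After centring, 6 of the 29 passed as higher in kidney and 12 as higher in liver, with 19.2% of all genes then passing on the kidney side and 14.6% on the liver side, so the count in kidney was near the share over all genes.

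Of 10 measured genes of synthesis and side chain shortening, Cyp27a1 included, 1 was higher in kidney, 5 were higher in liver and 4 did not pass. Over all genes tested, 5.56% were higher in kidney and 8.88% higher in liver. After centring, 2 of the 10 were higher in kidney and 4 higher in liver, beside 19.2% and 14.6% of all genes. Hsd3b7, which acts on the sterol ring after the first hydroxylation, was at -3.08 (SE 0.28, 8.46-fold lower in kidney), with no kidney array value for mouse 3. Cyp7b1, which carries on from Cyp27a1 in the acidic route, was at -2.09 (SE 0.22, 4.27-fold), about the organ ratio of Acox2 at -2.13 (SE 0.23), the peroxisomal oxidase that shortens the side chain. Hsd17b4, the next enzyme there, was at -0.83 (SE 0.20) with an adjusted p of 0.0296, which became 0.278 with mouse as a replicate block and 0.265 after centring. Amacr (-0.31), Scp2 (-0.53) and the peroxisomal carrier Abcd3 (-0.78) did not pass. Their recurring shares were 90%, 44.4% and 70%, so the probes of Amacr and Abcd3 were classed as dim by that share. For such probes the lack of a pass does not show equal RNA in both organs. Cyp2c70, which makes muricholic acids in mouse liver, was at 0.64 (SE 0.35, adjusted p = 0.198) and passed as higher in kidney after centring (1.06, adjusted p = 0.000496). Cyp2c70 did not pass with bright probes aligned or with mouse as a replicate block (limma, Benjamini-Hochberg adjusted p = 0.111 and 0.368). The nearest relative of Slc27a5 on the list, Slc27a2, a fatty acid transport protein with acyl-CoA synthetase activity in peroxisomes and the endoplasmic reticulum, went the other way at 2.01 (SE 0.24, 4.04-fold higher in kidney). For Slc27a2, mouse 2 had the highest averages, 2.73 on kidney arrays and 2.43 on liver arrays, against 1.56 to 1.94 in mice 1 and 3.

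Among carriers, the phospholipid exporter Abcb4, the canalicular neighbour of Abcb11, was at -2.92 (SE 0.21, 7.58-fold lower in kidney). Its averages were -2.54, -3.01 and -2.74 on kidney arrays and -2.85, -3.02 and -3.38 on liver arrays of mice 1, 2 and 3. Slc51a, a subunit of the basolateral organic solute transporter that releases bile acids to blood, was higher in kidney at 2.27 (SE 0.29, 4.84-fold). Its partner subunit Slc51b was at 0.92 (SE 0.32, adjusted p = 0.0897) and passed after centring (1.34, adjusted p = 0.000339) and with bright probes aligned (1.03, adjusted p = 0.0333). Slc51b did not pass with mouse as a replicate block (limma, Benjamini-Hochberg adjusted p = 0.24). The basolateral exporters Abcc3 (-0.59, with no kidney array value for mouse 3) and Abcc4 (0.20) did not pass as deposited, and Abcc4 passed after centring (0.62, adjusted p = 0.00821). With bright probes aligned and with mouse as a replicate block Abcc4 did not pass (limma, Benjamini-Hochberg adjusted p = 0.308 and 0.782). The probe of Abcc4 was classed as dim by its recurring share of 62.5%. Fabp6, the bile acid binding protein known from the ileum, was lower in kidney at -2.65 (SE 0.21, 6.26-fold). Related transcripts may add to the signal of a cDNA probe, which bears on families such as Abcb, Slc27, Cyp2c, Cyp3a and Fabp.

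Enzymes that act on bile acids or drugs in the liver included Cyp3a11 at -6.78 (SE 0.30, 109.9-fold lower in kidney) and the epoxide hydrolase Ephx1 at -2.59 (SE 0.22, 6.00-fold). Of the regulators, Nr0b2 (SHP, a repressor induced by bile acids) was at -1.66 (SE 0.28) and Nr5a2 (LRH-1, an activator of bile acid genes) at -2.23 (SE 0.20), both lower in kidney. Hnf4a, a transcription factor of hepatocytes and proximal tubule, was higher in kidney at 1.37 (SE 0.21), and its 2 probes averaged 1.25 and 1.60. Nr1h4, the bile acid receptor FXR, was at 0.06 (SE 0.21, adjusted p = 0.815) with its 2 probes at 0.05 and 0.15, and Nr1h3 was at 0.05. Rxra, the partner of FXR, was at -0.81 (SE 0.20, adjusted p = 0.0319), which became 0.284 with mouse as a replicate block and 0.228 after centring, and its 2 probes differed, at -1.21 and -0.30. The receptor Fgfr4 (-0.57), the mitochondrial cholesterol carrier Star (-0.59) and the electron donor Fdx1 (-0.58) did not pass. Recurring shares of 80% for Star and 75% for Fdx1 class them as dim, where the lack of a pass does not show equal RNA. The probe of Star that gave most of its values was at -0.49 on 16 arrays, and a further one at -7.76 on 1 array.

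**Figure D3:**
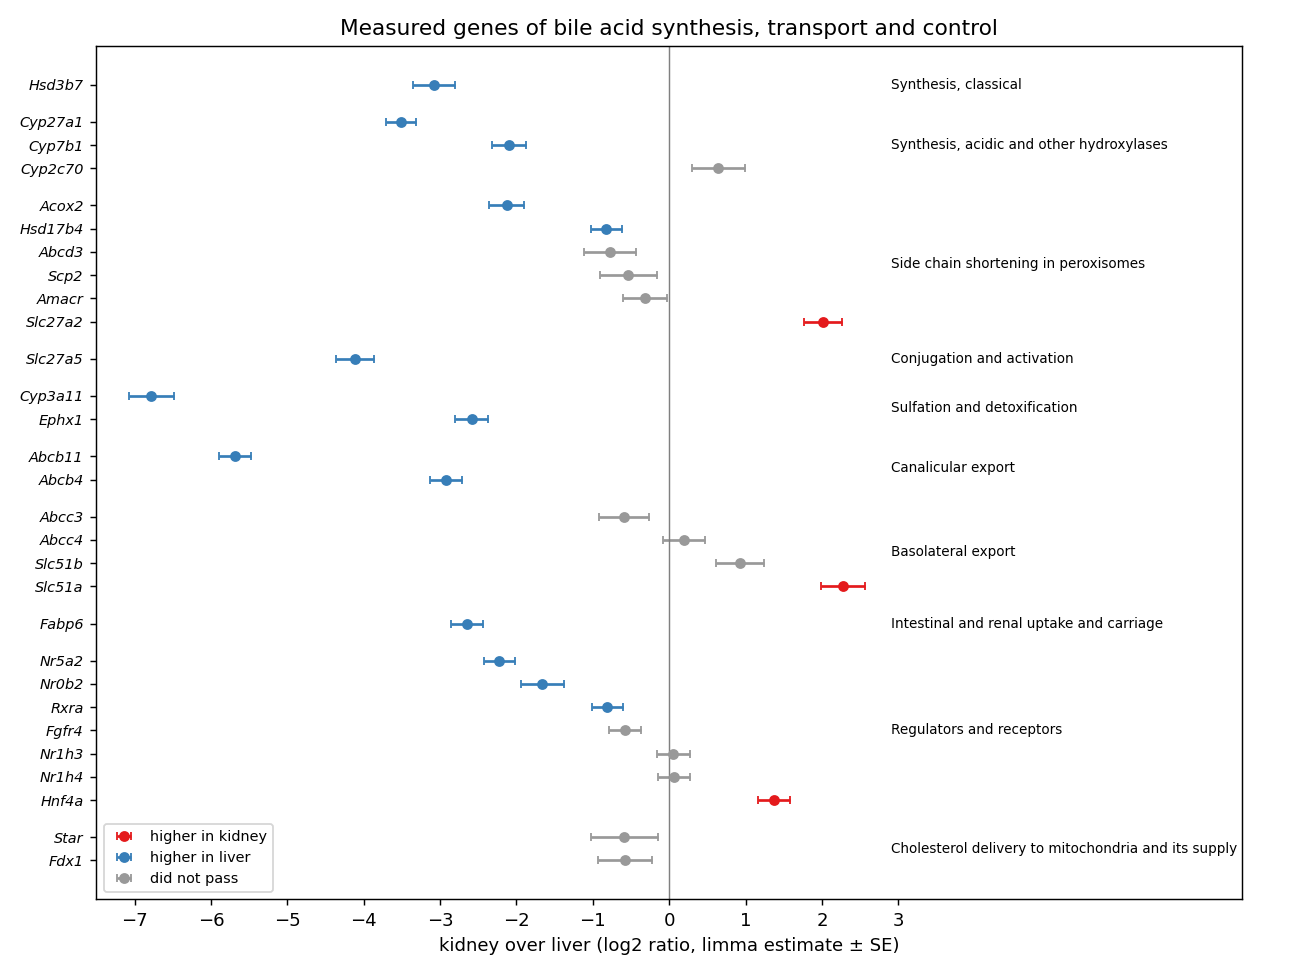
Log2 ratio of kidney over liver (horizontal axis, limma estimate with a bar of 1 SE to each side) for the 29 measured genes of bile acid metabolism, grouped by role. Estimates rest on n = 3 mice per organ, but Hsd3b7 and Abcc3 had no kidney array value for mouse 3. The SE come from the fit without a replicate block and tend to be too small. Red marks 3 genes higher in kidney, blue marks 14 higher in liver and grey marks 12 that did not pass, with Cyp3a11 and Abcb11 farthest to the left.

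For each of the 3 genes, the 5 genes closest in kidney over liver were found by the root mean square difference of the log2 ratios over the 16 arrays (15 for Serpina3n). Closest to Abcb11 were Apoa5 (an apolipoprotein; difference 0.62, own estimate -5.57), Wfdc21 (0.63, -6.03), Serpina3n (a protease inhibitor; 0.65, -5.83), Rdh7 (a retinol dehydrogenase; 0.66, -5.37) and Apoh (0.69, -6.11). Closest to Slc27a5 were Coch (0.45, -4.08), the growth factor binding protein Igfbp2 (0.49, -4.13), Cul7 (0.50, -3.90), the fatty acid desaturase Scd1 (0.51, -4.10) and coagulation factor F5 (0.54, -4.01). Closest to Cyp27a1 were fibronectin Fn1 (0.28, -3.53), Dcpp1 (0.28, -3.53), Gch1 (0.29, -3.63), the steroid dehydrogenase Hsd17b2 (0.31, -3.34) and clusterin Clu (0.32, -3.59). The distances were larger around Abcb11 than around Cyp27a1. They share arrays, pools and the offset of mouse 2, and the measure weighs the size of the organ difference more than its pattern over mice.

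**Figure D4:**
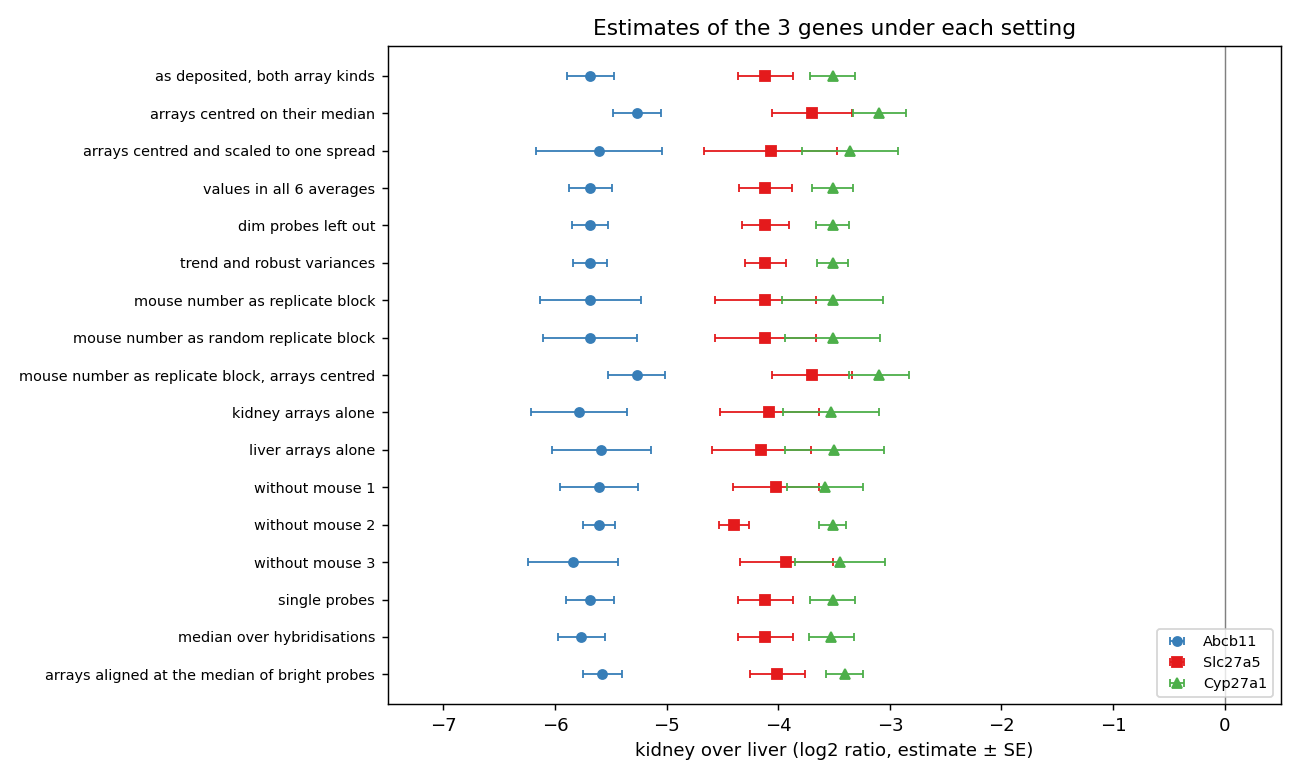
Estimated log2 ratio of kidney over liver (horizontal axis, with a bar of 1 SE to each side) of Abcb11 (circles), Slc27a5 (squares) and Cyp27a1 (triangles) with the values as deposited and under 16 alternative settings. The 3 genes keep their order in each setting, and Abcb11 stays between -5.84 and -5.27, Slc27a5 between -4.40 and -3.70 and Cyp27a1 between -3.58 and -3.10. Many settings could not change the order. Filters, single probes, the variance model and a block leave the estimates as they were, and centring or alignment alone moves all 3 alike.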

How the data were processed

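Per the labels, 20 µg of total RNA per organ was reverse transcribed and carried Cy3 or Cy5; the slides were scanned with a GenePix 4000A and read with GenePix Pro 3.0 as mean intensity less background, and the authors set the median ratio of an array to 1. What was deposited is on a log2 scale, 1 value per probe and array. The direction, the dye of each sample and the log base are not given in the sources used here. Direction was taken from organ markers. The log base was read from spacings between frequent values on 10 arrays: 86 of 90 fitted base 2 (ratios of whole numbers no larger than 10, tolerance 1e-04), 8 fitted base 10 and 0 base e. The 6 arrays of mouse 2 are not centred at 0.

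Of 20419 probes, 11723 carried 1 symbol, 806 several and 7890 none, and 11590 of the first matched RefSeq. Values were turned to kidney over liver, then averaged over probes of a gene and over repeat arrays. The test was limma 3.58.1 (R 4.3.3) on 6 averages (3 mice, both organs) with a term for the array kind, on genes measured in 2 or more mice in each organ. P-values are two-sided, adjusted by Benjamini-Hochberg over all genes, with a threshold of 0.05. The fit was run on simulated averages with independent noise of equal variance, without an offset of mouse 2 or correlation within a mouse. That run therefore does not bear on the SE of the real averages. Comparisons of mice within an organ used single arrays centred on their median with deposited values as an alternative. Bright probes had a recurring share of at most 0.1 on at least 8 arrays, and dim probes a share over 0.5.

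Mouse numbers name the same animals on both array kinds, per the labels. Over 7514 genes, deviations of kidney and liver of a mouse, as sample over pool, correlated at -0.575, -0.789 and -0.568 for mice 1, 2 and 3, so the SE without a replicate block tend to be too small. Precision is limited by 3 mice. The members, the list of 56 genes, the markers and the motifs were chosen with earlier results of these data known. Named were the members, list genes and markers, and the 5 genes closest to each member. Alternatives covered scaling, filters, variance model, block, array kind and left-out mice. Figures used matplotlib 3.10.9.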

Additional observations from a re-analysis of the deposited data

How the results depend on the processing

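Abcb11, Slc27a5 and Cyp27a1 were lower in kidney and passed under each of 16 alternatives, from -5.84 to -5.27, -4.40 to -3.70 and -3.58 to -3.10, with an adjusted p of at most 0.00143 (limma, Benjamini-Hochberg). Filters, single probes, the variance model and a block without centring left these estimates unchanged. The mouse number as a replicate block changed none of these calls. Counts over all genes moved more. As deposited, 1306 of 9047 passed, 503 higher in kidney and 803 in liver. After centring 3057 passed (1734 in kidney, 1323 in liver), and with scaled spread 3187 (1811 and 1376). With the replicate block 683 passed (254 and 429), with a random replicate block 557 (214 and 343), and with block and centring 1214 were higher in kidney. Kidney arrays alone gave 454 (169 and 285) and liver arrays alone 836 with 297 higher in kidney. Single probes gave 2358 of 18670 (967 and 1391). Without dim probes 789 were higher in kidney, and 785 with bright probes aligned. Leaving out a mouse gave 463 to 2726 genes, 141 to 1537 in kidney and 322 to 1189 in liver, with the highest counts without mouse 2. Pathway genes higher in kidney numbered 6 in place of 3 after centring, with scaled spread, with block and centring, and without mouse 2, and 2 to 6 over the left-out mice. For the array kind 1 gene passed after centring and 9 with the replicate block; without a mouse its value ran from -0.17 to 0.12 for Cyp27a1 and -0.16 to 0.25 for Slc27a5, changing sign. Between mice on kidney arrays, centred values called Abcb11 (adjusted p 0.00235) and Cyp27a1 (0.00361), but as deposited these were 0.663 and 0.33, and with bright probes aligned 0.479 and 0.899.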
